A study of Mus musculus with 4 samples.

Results

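The cells described here were gated as Ly6c2 inflammatory monocytes of mouse ascites, selected by the unique molecular identifiers (UMIs, each standing for 1 captured RNA molecule) of a few genes in a cell. A member had at least 3 UMIs of Lyz2, at least 1 of Ccr2 and at least 1 of Ly6c2. It also had at most 1 UMI of C1qa, C1qb and C1qc together, at most 2 of Retnla, at most 1 of the Cd3 genes, at most 2 of Cd79a and Cd79b and at most 2 of the keratins Krt7, Krt8, Krt18 and Krt19. Of 45178 cells that passed the cell filters (at least 200 genes, at most 33% mitochondrial UMIs), 653 were members. They were set beside 2991 C1q-positive macrophages of the same libraries, which had at least 5 C1q UMIs and the same limits on Cd3, Cd79 and keratin UMIs. Markers of other cell types were found in 33 of 50 members of the combination library and 70 of 593 of the BTYNB library, where the name of the gate does not hold for every cell. Since the genes of the rule chose the cells, their levels are a description and were not tested.

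All mice were C57BL/6 animals injected intraperitoneally with ID8-Trp53-/- cells, a mouse ovarian surface epithelial tumour line without functional Trp53, and 7 days were allowed for engraftment. Control mice received the vehicle DMSO and the isotype antibody IgG2a. The BTYNB group received BTYNB, a small molecule inhibitor of the RNA-binding protein Igf2bp1, at 50 mg/kg with the isotype antibody. The anti-PD-1 group received DMSO with clone RMP1-14, an antibody against the T cell receptor PD-1, at 100 ng per dose, and the combination group received BTYNB with that antibody. The doses are those of the labels, and the study's methods state others. Ascites was collected at about 3 mL, erythrocytes were depleted, and the cells of all animals of a treatment were pooled into 1 library. Treatment, pool and library therefore cannot be told apart, and no test between treatments was possible. Fewer monocytes in the mouse and fewer monocytes surviving collection and capture cannot be told apart either.

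Inflammatory monocytes are made in the bone marrow and leave it through the chemokine receptor CCR2, whose main ligand is CCL2. In inflamed tissue and in tumours they mature into macrophages or into antigen-presenting cells that resemble dendritic cells, losing Ly6C and gaining complement C1q or MHC class II. The peritoneal cavity also holds long-lived resident macrophages that do not depend on this supply.

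The libraries, given in the order BTYNB, combination, control and anti-PD-1 wherever 4 values follow each other, held 114600397, 78603888, 80499877 and 89236522 UMIs. They were cut off at different depths, since the smallest deposited cell had 869, 5115, 4438 and 3533 UMIs. The median member had 3688, 6867, 6119 and 4544 UMIs. Of the deposited barcodes, 13 occurred in more than 1 library, and 0 of them belonged to a member.

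Members were concentrated in 1 library, with 593 of 653 from BTYNB-treated mice. BTYNB held 593 members of 18283 kept cells, a share of 3.24% (exact 95% binomial interval 2.99 to 3.51). Combination held 50 of 7042, a share of 0.710% (0.527 to 0.935). Control held 8 of 7834, a share of 0.102% (0.0441 to 0.201), and anti-PD-1 2 of 12019, a share of 0.0166% (0.00202 to 0.0601). Both libraries with BTYNB thus lay above both libraries without it, and their intervals did not overlap. Those of combination and control did overlap without cells carrying other markers (0.241%, 0.141 to 0.386, against 0.0894%, 0.0359 to 0.184), among cells with a Ptprc UMI (1.43 to 2.53 against 0.185 to 1.73) and relative to both gates (4.05 to 7.09 against 1.40 to 6.26). The intervals cover counting error only, not the spread between mice. Relative to the C1q-positive macrophages, members made up 28.0% of both gates in BTYNB, 5.42% in combination, 3.23% in control and 0.559% in anti-PD-1, the same order.

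**Figure D1:**
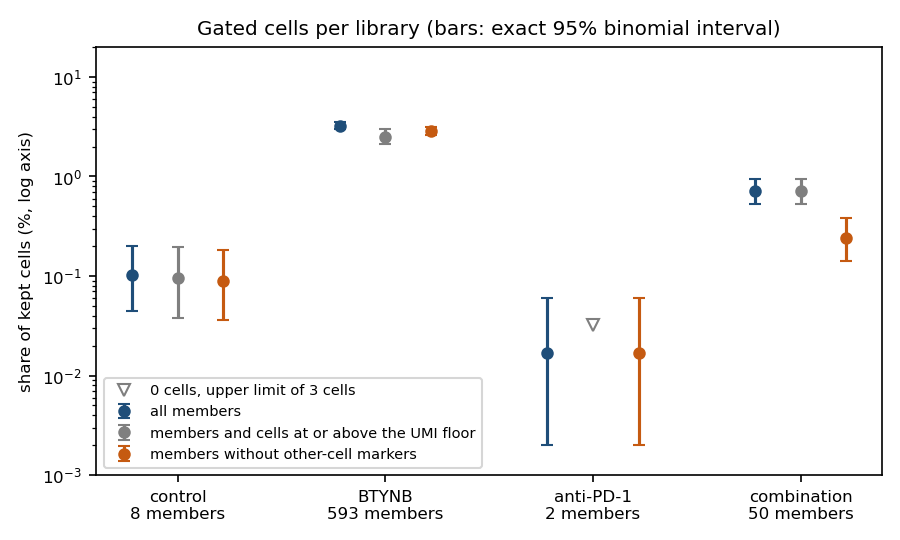
Share of kept cells that passed the monocyte gate in each library, in percent on a log axis, for all members (blue), for cells at or above 5115 UMIs (grey) and for members without markers of other cells (orange). Bars are exact 95% binomial intervals, and the triangle is the upper limit of a count of 0. BTYNB lies highest in each of the 3 settings, at 3.24%, 2.52% and 2.86%.

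The order of the shares was kept at a common depth. Among cells of at least 5115 UMIs, members made up 2.52% in BTYNB (139 of 5521 cells), 0.710% in combination, 0.0950% in control (7 of 7367) and 0 of 9256 cells in anti-PD-1, which allows a share of up to 0.0324%. Among cells with a UMI of Ptprc, the leukocyte gene CD45, the shares were 4.42%, 1.92%, 0.679% and 0.13%. The keratin limit of the gate weighed most on the libraries with few members. It removed all but 8 of 21 cells in control, 2 of 17 in anti-PD-1 and 50 of 72 in combination, against 593 of 607 in BTYNB. Without that limit the shares were 3.32%, 1.02%, 0.268% and 0.141%.

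Ly6c2 encodes the surface antigen Ly6C by which these monocytes are sorted. Its level in the summed UMIs of the members, in CPM (UMIs scaled to the same total in each sum), was 1443 in BTYNB (exact 95% Poisson interval 1397 to 1491), 612 in combination (535 to 698), 1146 in control (870 to 1481) and 220 in anti-PD-1 (26.7 to 795). C1q-positive macrophages held 345, 104, 48.6 and 40.6 CPM, and keratin-positive tumour cells between 0.510 and 2.22 CPM. Ly6c2 was above the level of free RNA in tumour cells in every library, as the rule requires of the members, and the members of BTYNB and control lay above those of combination. The median member had 4.5 Ly6c2 UMIs in control and 3 in BTYNB but 1 in combination, which is the threshold of the rule.

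The near-identical neighbour Ly6c1, a marker of endothelial and lymphoid cells, had 3.57 CPM in the members of BTYNB, 2.72 CPM in combination and 0 UMIs in control and anti-PD-1. Reads of such a pair can be split between the copies, but hardly any were assigned to Ly6c1. The promoter windows of Ly6c2, Ly6c1 and Chil3 follow because Ly6c2 defines the gate, Ly6c1 is its near copy with few UMIs, and Chil3, a marker of these monocytes that the rule did not use, differed widely between libraries. Each runs 5′ to 3′ from 250 bases before to 50 after the gene start on the minus strand, taken from RefSeq (GRCm38.p6) by symbol, with 3 of 3 matched and the first window listed for each. The windows lie at chr15:75111922-75112221 for Ly6c2, chr15:75048788-75049087 for Ly6c1 and chr3:106167515-106167814 for Chil3. Capitals mark GAGGAA or its reverse complement TTCCTC, the core of the motif of PU.1, the transcription factor of the myeloid lineage.
Ly6c2: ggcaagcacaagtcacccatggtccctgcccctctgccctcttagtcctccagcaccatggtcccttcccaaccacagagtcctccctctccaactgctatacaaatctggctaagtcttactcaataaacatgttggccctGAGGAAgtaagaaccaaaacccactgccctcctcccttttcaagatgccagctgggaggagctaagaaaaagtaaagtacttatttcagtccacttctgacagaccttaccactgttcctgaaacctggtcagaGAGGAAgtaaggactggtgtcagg
Ly6c1: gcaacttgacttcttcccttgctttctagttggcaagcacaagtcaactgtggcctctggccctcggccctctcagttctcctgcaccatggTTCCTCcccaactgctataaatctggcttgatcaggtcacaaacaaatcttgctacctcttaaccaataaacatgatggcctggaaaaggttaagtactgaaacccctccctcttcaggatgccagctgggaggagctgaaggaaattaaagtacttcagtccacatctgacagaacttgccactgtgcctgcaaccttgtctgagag
Chil3: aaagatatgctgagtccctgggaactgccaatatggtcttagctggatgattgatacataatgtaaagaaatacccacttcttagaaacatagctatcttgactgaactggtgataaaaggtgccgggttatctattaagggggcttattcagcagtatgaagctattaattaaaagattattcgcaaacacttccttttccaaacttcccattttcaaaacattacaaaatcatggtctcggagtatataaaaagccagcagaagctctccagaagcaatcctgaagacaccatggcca

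The Ly6c2 window held 2 matches to the PU.1 core, starting at positions -108 and 27 relative to the gene start. Ly6c1 held 1, at -158, and Chil3 held 0, where 28.3% of 32851 mouse promoter windows of 300 bases held at least 1 on either strand. None of the 3 held TTGCNNAA on either strand, a motif of the C/EBP factors found in 10.8% of windows. Ly6c2 and Ly6c1 were identical at 78.2% of 266 aligned bases, and neither of the 2 Ly6c2 matches had a match at the same distance from the start in Ly6c1. These are matches of letters only, and the reference build differs from the GRCm39 build of the files.

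Ccr2, the receptor for CCL2, was present in the members at 2259, 1559, 1166 and 990 CPM. Lyz2, the lysozyme of granulocytes and macrophages, lay at 7012, 3029, 3181 and 4072 CPM. In the macrophages Lyz2 was at 7146 CPM in BTYNB and between 10456 and 12245 CPM elsewhere, so that it was level with the members in BTYNB only. The median member had 24 Lyz2 UMIs in BTYNB and 6 in combination.

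Chil3, which encodes the chitinase-like protein Ym1 and was not used by the rule, separated the libraries. Its level was 670 CPM in BTYNB (639 to 703), 40.8 in combination (22.8 to 67.3), 98.8 in control (32.1 to 231) and 110 in anti-PD-1 (2.79 to 613), and UMIs were found in 332 of 593, 4 of 50, 3 of 8 and 1 of 2 members. In the macrophages it was at 105 CPM in BTYNB and 19.2 in combination. After each cell was thinned to 2000 UMIs, 47.4% of 534 BTYNB members had a Chil3 UMI (59 shallower members were left out) against 6.0% of 50 in combination (1.25 to 16.5), where the unthinned shares were 56.0% and 8.0%. The thinned shares were 15.4% and 2.52% in the macrophages, and 0.136% and 0 of 1500 in tumour cells, which should lack the gene. At an equal number of UMIs, members of BTYNB thus carried Chil3 more often than members of combination, beyond counting error. Thinning did not match the cells that entered, since 139 of 593 BTYNB members and all 50 of combination had at least 5115 UMIs. The Chil3 share among members of that depth was not computed.

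Other genes of classical monocytes were also lower in combination than in BTYNB. Plac8, a small protein of myeloid cells, lay at 3051, 1276, 1818 and 2311 CPM, with 1093, 355, 269 and 369 CPM in the macrophages. Vcan, the proteoglycan versican, lay at 488, 112, 237 and 110 CPM, against 128, 22.7, 30.3 and 21.9 CPM in the macrophages. Both were above the macrophages in all 4 libraries, although in anti-PD-1 the value of Vcan rests on 1 UMI.
F13a1, a subunit of coagulation factor XIII, was at 917 CPM in the BTYNB members and 602 in the macrophages, but at 161 in combination against 228. Its thinned share of positive members was 61.2% in BTYNB and 16.0% in combination. Hp, which encodes haptoglobin, was at 229 CPM in BTYNB and 49.0 in combination. The counting intervals of BTYNB and combination did not overlap for any of these 4 genes, and F13a1 in combination lay below the macrophages.

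**Figure D2:**
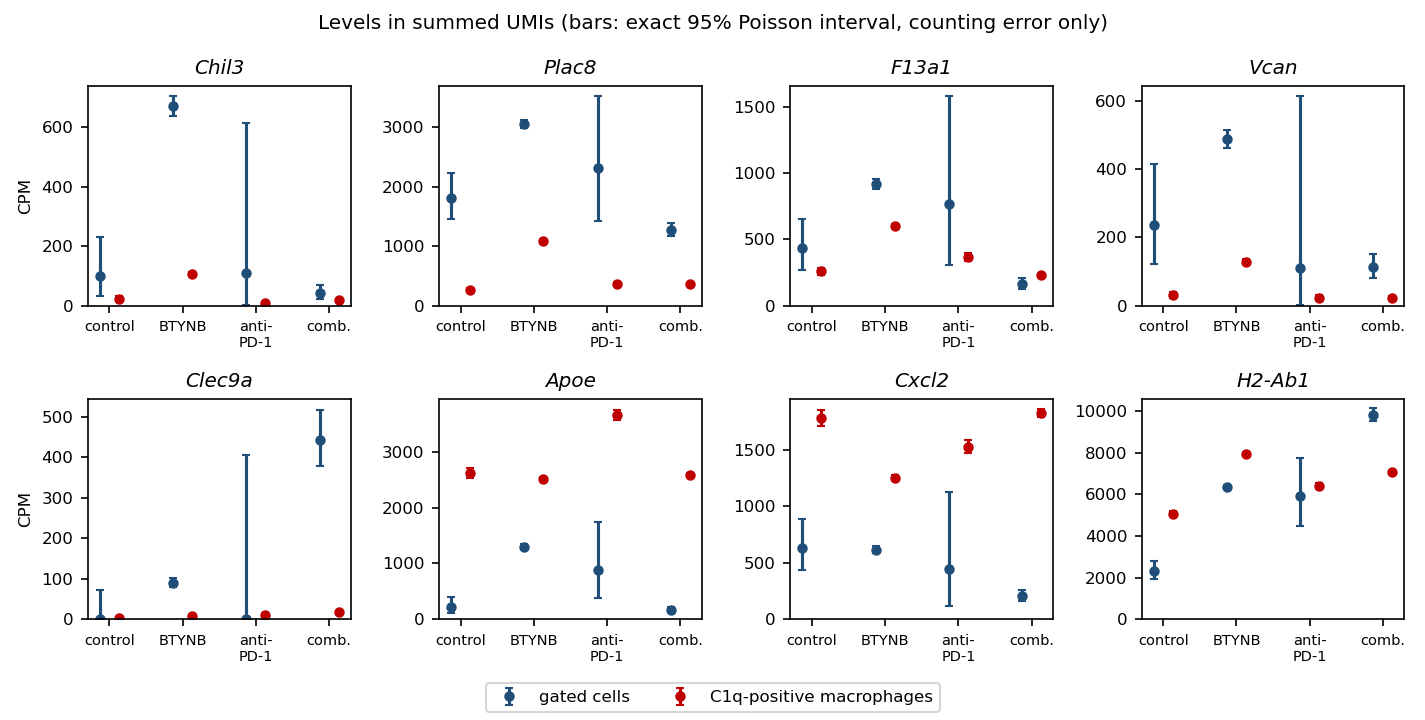
Levels (CPM) of 8 genes in the summed UMIs of gated cells (blue) and C1q-positive macrophages (red) by library, with exact 95% Poisson intervals that cover counting error only. Chil3, Plac8, F13a1 and Vcan are highest in the BTYNB gated cells, at 670, 3051, 917 and 488 CPM, whereas Clec9a is highest in those of combination, at 444 CPM.

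Markers of dendritic cells were frequent in the members of combination, and there the data went against the label. At least 2 UMIs of a set of dendritic cell genes were found in 32 of 50 members of combination (64.0%, exact interval 49.2 to 77.1), against 50 of 593 in BTYNB (8.43%, 6.32 to 11) and 1 of 8 in control. At or above 5115 UMIs the BTYNB share was 28.8% (40 of 139, 21.4 to 37.1). In the macrophages, 63 of 1523 cells of BTYNB and 65 of 872 of combination had as many. Xcr1, the chemokine receptor of cross-presenting dendritic cells, had UMIs in 24 members of combination and 24 of BTYNB, and lay at 808 and 144 CPM. Clec9a, a receptor for dead cells on the same lineage, lay at 444 and 89.7 CPM, and both genes had 0 UMIs in control and anti-PD-1. The 7 markers of that lineage summed to 941, 3619, 178 and 110 CPM, with 264 to 405 CPM in the macrophages. Removal of every cell with at least 2 UMIs of another cell type's markers left 523 of 593 members in BTYNB, 17 of 50 in combination, 7 of 8 in control and 2 of 2 in anti-PD-1. The cells of combination are therefore called gated cells, not monocytes, where this mixture touches a value.

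Neutrophil genes stood out in BTYNB. The 10 neutrophil markers summed to 1469 CPM there and to 16.3 CPM in combination, where 9 of the 10 were at 0. S100a8, a calprotectin subunit, had 1705 UMIs in 34 BTYNB members, and 10 of them held 81.3% of the UMIs. At least 2 UMIs of neutrophil and granule genes were found in 18 of 593 BTYNB members and 0 of 50 in combination. T cell, NK cell and mature dendritic cell markers summed to at most 35.4, 19 and 98.8 CPM in the members of any library, and B and plasma cell and plasmacytoid dendritic cell markers to at most 152 and 161 CPM. Mast and basophil markers reached 109 CPM in BTYNB, with all UMIs of Tpsb2 in 1 cell, and erythroid markers 281 CPM. Tumour markers, which the gate limited, summed to 144, 245, 751 and 440 CPM, against 2674 to 3377 CPM in tumour cells, and markers of type 2 and monocyte-derived dendritic cells to 323, 898, 316 and 110 CPM. Those of alternatively activated macrophages were at most 46.3 CPM against at least 618 CPM in the macrophages, as the limits on C1q and Retnla require in part. The part of these other cells in the differences given here was not tested beyond the removals stated.

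The members were not uniform. Clustering of the 653 members gave 8 groups, which are a description of the cells clustered and carry no test. Cluster 1 (154 cells) was led by the monocyte chemokines Ccl12, Ccl7 and Ccl2 with Arg1, Maf, Mertk and Apoe, genes of maturing macrophages. Cluster 2 (144 cells) was led by Ly6a2, Chil3, Itgal and Cx3cr1, had Chil3 at 1412 CPM and carried the MHC class II gene H2-Ab1 at 1021 CPM, where cluster 1 had 6691 and BTYNB tumour cells 577. Cluster 3 (96 cells) was led by Vcan, F13a1 and Fn1, with F13a1 at 1842 CPM. These 3 clusters held 384 of the BTYNB members and 9 of the 50 of combination.

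Cluster 4 held 90 cells, all of BTYNB, with a median of 2659 UMIs and the leading genes Pde7b and Lrmda. Its levels of Ly6c2 (1340 CPM), Chil3 (537) and Plac8 (2808) lay near those of cluster 1 (1515, 547 and 2622). Clusters 5 to 8 departed further from the gate's label. Cluster 5 (81 cells) was led by Mgl2, Cd209a, Sparc and Clec10a, lectins of monocyte-derived antigen-presenting cells among them, and held 6 of the 8 control members. Cluster 6 (49 cells) was led by Xcr1, Septin3, Clec9a and Itgae, had Chil3 at 2.46 CPM and H2-Ab1 at 13336 CPM, and held 25 cells of BTYNB and 24 of combination. Cluster 7 (24 cells) was led by the replication genes Pclaf and Top2a and the granule gene Prtn3, and had Mpo, the myeloperoxidase of progenitors, at 862 CPM. Among all members Mpo UMIs were found in 6 BTYNB cells, with 66.0% in a single cell, and in 0 cells of combination, control and anti-PD-1. Cluster 8 (15 cells, all of BTYNB) was led by S100a9, S100a8 and Retnlg, with S100a8 at 20888 CPM and Chil3 at 3871 CPM. For clusters 4 and 8, which came from a single library, library and cell state cannot be told apart.

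**Figure D3:**
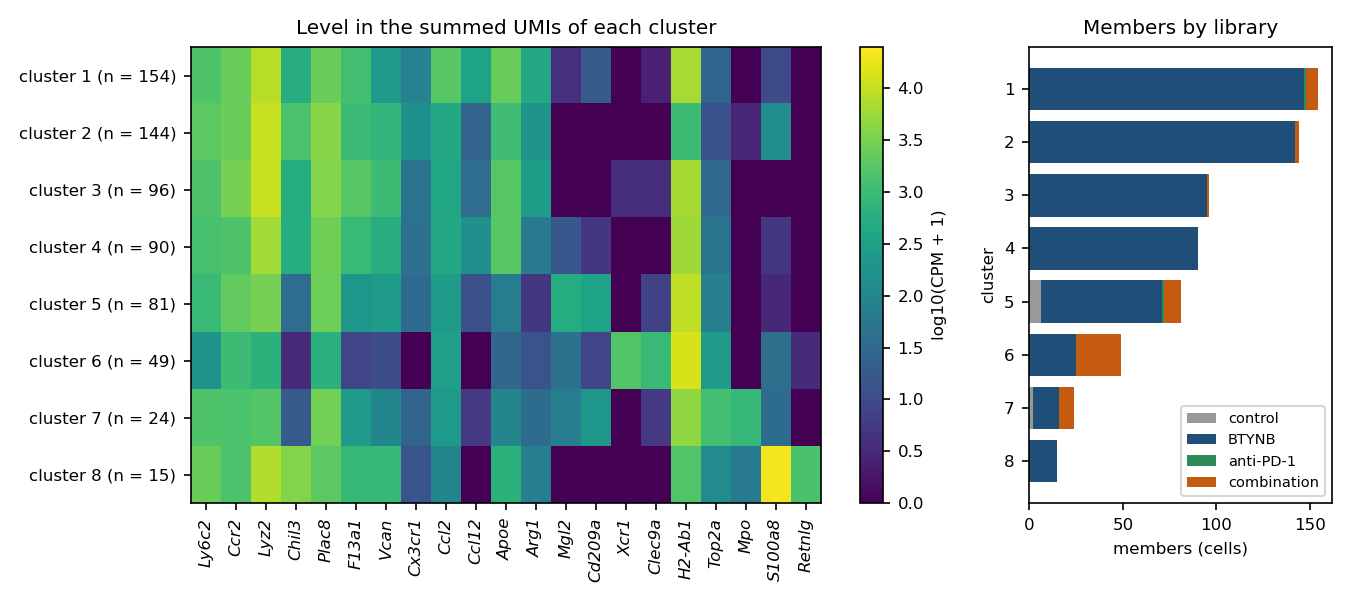
Left, level of 21 genes in the summed UMIs of each of 8 clusters of the members, as log10(CPM + 1). Right, number of members of each cluster by library. Clusters 1 to 4 are nearly all BTYNB cells, and 24 of the 50 combination cells lie in cluster 6, which carries Xcr1 at 1620 CPM.

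To find what set the gated cells apart from the C1q-positive macrophages of the same pool, UMIs were summed per gate and library and compared with edgeR's quasi-likelihood test, with the library as a block. Only BTYNB and combination had at least 20 cells in both gates, which leaves 1 residual degree of freedom. The tested genes come from the cells the gates chose, so the differences describe the gates. Of 10911 genes, 8 were higher in the monocyte gate (0.0733% of those tested) and 7 lower (0.0642%) at a Benjamini-Hochberg adjusted p under 0.05, and 858 had an unadjusted p under 0.05. By size alone, 90 genes (0.825%) were at least 2-fold higher in both libraries and 240 (2.2%) at least 2-fold lower.

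**Figure D4:**
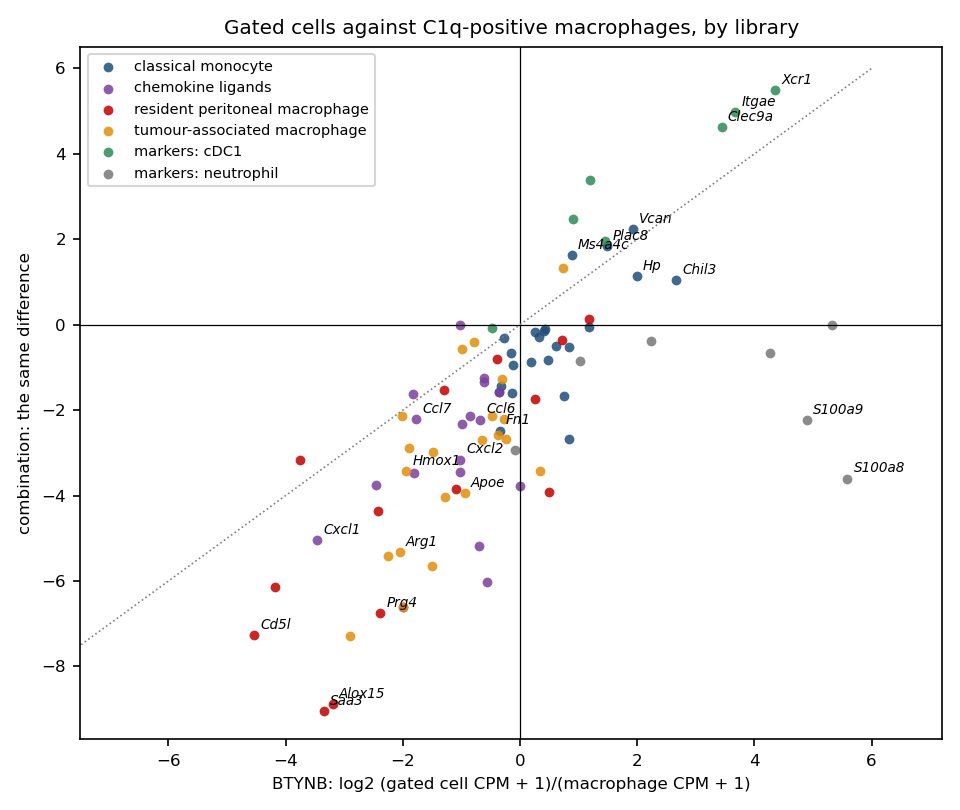
Difference between gated cells and C1q-positive macrophages, log2 of (CPM + 1) ratios, in BTYNB (x axis) and combination (y axis) for the tested genes of 4 gene lists and 2 marker lists, where the dotted line marks equal values. Most resident and tumour-associated macrophage genes lie at lower left, most of them further down in combination, and the neutrophil genes S100a8 and S100a9 lie above 0 in BTYNB but below it in combination.

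Most genes called higher were those of the Xcr1 cluster. Xcr1 was 5.06 ± 0.32 (log2 difference ± approximate SE, derived from the test statistic) higher in the gated cells, with an edgeR adjusted p of 0.0284. It lay at 144 against 6.09 CPM in BTYNB and 808 against 16.9 in combination. Septin3 (4.67), Gm43914 (4.64), the integrin gene Itgae (4.48), Gpr141b (4.37) and Clec9a (4.14) were called with it, as was Gcsam, below 50 CPM on average. The exception was Mmp8, the neutrophil collagenase, at 121 against 6.89 CPM in BTYNB and 27.2 against 1.34 in combination (4.15 ± 0.30, edgeR adjusted p = 0.0316).
After cells with 2 or more UMIs of another cell type's markers were removed from the gated cells, Xcr1 (-3.75), Itgae (-2.58), Clec9a (-3.04), Septin3 (-1.82) and Gpr141b (-1.27) were on the lower side. The first 3 of these were among the markers used for the removal. The macrophages were not filtered, and 63 of 1523 in BTYNB and 65 of 872 in combination kept at least 2 UMIs of dendritic cell genes. The change of side therefore describes a removal made in the gated cells only. Mmp8, which was not among the markers used for the removal, stayed called as higher (4.27).

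Of the 7 genes called lower, 2 were on the list of resident peritoneal macrophage genes (Alox15, Cd5l), 1 on that of chemokine ligands (Cxcl1), 1 on that of lipid handling (Lpl) and 1 among the markers of alternatively activated macrophages (Fcna). Fcna, which encodes a ficolin, Alox15, a lipoxygenase, and Cd5l, a secreted scavenger protein, had 0 UMIs in the gated cells of both fitted libraries. Against the 3 counts that 0 allows, Fcna was at least 60.8-fold lower in BTYNB and 28.0-fold in combination, Alox15 at least 6.85-fold and 57.6-fold, and Cd5l at least 18.7-fold and 18.8-fold (edgeR adjusted p = 0.0316, 0.034 and 0.0476). DESeq2 lost these 3 calls, with adjusted p of 0.589, 0.994 and 0.924. Cxcl1, a neutrophil chemokine, was at 5.95 against 75.9 CPM in BTYNB and 8.16 against 301 in combination (-4.18 ± 0.39, edgeR adjusted p = 0.0396). Lpl, lipoprotein lipase, was at 120 against 499 and 98.0 against 516 CPM (-2.23 ± 0.21, 0.0447), and Rgs1, a regulator of G protein signalling, at 267 against 1046 and 408 against 1567 CPM (-1.98 ± 0.18, 0.034). Fcrls (-5.72), like Rgs1, was on none of the lists. In the 8 control members, Cxcl1 was at 277 CPM against 242 in the control macrophages, and so did not show the difference.

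The list of classical monocyte genes had 0 of 23 tested members called, and 4 at least 2-fold higher in both libraries, namely Chil3, Plac8, Vcan and Hp with log2 differences of 2.08, 1.63, 2.06 and 1.67 (edgeR adjusted p = 0.22, 0.0563, 0.0563 and 0.18). The median of the list was 0.43 in BTYNB and -0.51 in combination, where all tested genes had 0.00 and -0.02. Of all tested genes, 0.825% were at least 2-fold higher in both libraries. Without the cells with other markers, 268 of 10800 genes were called, 56 higher (0.519%) and 212 lower (1.96%), 10 of them shared with the 15 above. Then 9 classical monocyte genes were called higher, among them Vcan (2.64), Chil3 (2.61), Hp (2.30), Plac8 (1.99), Ms4a4c (1.58) and F13a1 (0.92), and 1, Fn1, lower. This setting was chosen after the data had been seen, left the macrophages unfiltered, and its combination sum holds 17 cells. Its fit gave no gene a spread of its own, so its p-values rest on a spread shared between genes. With all 4 libraries, another setting added after the data were seen, 470 of 11309 genes were called, 157 higher (1.39%) and 313 lower (2.77%), with all 15 above among them. That fit also gave no gene a spread of its own.

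Macrophage genes were described by their lists. Over all 10911 tested genes, 2.2% were at least 2-fold lower in both libraries and 0.0642% were called lower. Of 14 tested genes of resident peritoneal macrophages, 9 were at least 2-fold lower in both libraries and 2 were called (Alox15, Cd5l), with a median of -1.85 in BTYNB and -3.88 in combination, or -1.75 and -3.33 with genes at 0 set to their bound. Saa3, a serum amyloid protein, was at 44.8 against 464 CPM in BTYNB and 2.72 against 1965 in combination. Prg4, a lubricating glycoprotein, was at 1.19 against 10.5 and 5.44 against 695 CPM. The list of tumour-associated macrophage genes had 10 of 21 at least 2-fold lower in both libraries and 0 called, with medians of -0.99 and -2.89. Arg1, the arginase of suppressive myeloid cells, was at 198 against 824 CPM in BTYNB and 32.7 against 1344 in combination, and Apoe at 1300 against 2506 and 166 against 2582. Without other markers 12 of the 21 were called lower, Arg1 at -2.41, Hmox1 at -1.94 and Apoe at -1.55. That setting called 1.96% of all tested genes lower.

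Chemokine, lipid and lysosome genes were described in the same way, in a fit that called 7 of 10911 genes (0.0642%) lower. Of all genes tested, 2.2% were at least 2-fold lower in both libraries. Of 18 tested chemokine ligand genes, 8 were at least 2-fold lower in both libraries and Cxcl1 alone was called, with a median of -1.0 in BTYNB and -2.74 in combination. Ccl7 was at 104 against 358 and 68.0 against 319 CPM (-1.99, edgeR adjusted p = 0.061), and Cxcl2 at 616 against 1257 and 204 against 1831. In lipid handling 6 of 16 were at least 2-fold lower in both (medians -0.91 and -2.33), with Lpl called, and among lysosome genes 3 of 19 (-0.30 and -1.06), including the protease Ctsb at 1200 against 2513 and 680 against 3623 CPM. Inflammatory mediators had 4 of 16 lower in both (medians -0.34 and -1.01) and 0 called. Il1b, the cytokine interleukin-1β, was not among them, at 541 against 349 CPM in BTYNB and 68.0 against 85.0 in combination.

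In the other lists 0 members were called in this fit, which called 15 of 10911 genes, so 0 in a short list says little. Of all tested genes, 2.2% were at least 2-fold lower in both libraries and 0.825% at least 2-fold higher. At least 2-fold lower in both libraries were 1 of 10 patrolling monocyte genes, 1 of 18 pattern recognition and inflammasome genes, 2 of 8 complement genes and 2 of 19 genes inducible by interferon-gamma, Cxcl9 and Iigp1. The medians were -0.46 in BTYNB and -2.12 in combination for complement, -0.09 and -1.19 for pattern recognition, 0.11 and -0.36 for patrolling monocyte genes and 0.04 and -0.40 for genes inducible by interferon-gamma. At least 2-fold higher in both was 1 of 10 MHC class II genes, H2-Oa. The lists of 20 cytokine receptors, 6 NADPH oxidase subunits, 5 Fc receptors, 11 costimulatory and checkpoint ligands, 23 type I interferon-stimulated genes, 22 myeloid transcription factors, 13 AP-1 and immediate early genes, 16 glycolysis genes, 18 cell cycle genes and 81 ribosomal protein genes had 0 in either direction. The medians of these lists in BTYNB lay between -0.57 for cell cycle genes and 0.30 for cytokine receptors. In combination they ran from -1.17 for Fc receptors to 0.72 for cell cycle genes. MHC class II genes differed in sign, with a median of -0.25 in BTYNB and 0.43 in combination, and 5 were called lower without other markers. In that setting 2 complement genes, 2 genes inducible by interferon-gamma, 1 Fc receptor gene, 3 transcription factors, 1 AP-1 gene and 5 cell cycle genes were also called lower, and 1 cytokine receptor and 1 gene inducible by interferon-gamma higher. Over all genes, that setting called 1.96% lower and 0.519% higher, with the macrophages left unfiltered.

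Cells on both sides of the C1q limit were described among those that passed the other limits. All of them therefore held the Lyz2, Ccr2 and Ly6c2 UMIs that the rule requires. Among BTYNB cells that passed the other limits, Chil3 was at 678 CPM with 0 C1q UMIs (547 cells) and 578 with 1 (46 cells), just inside the limit, and at 303 with 2 (27 cells), just outside. It stood at 436 CPM with 3 or 4 UMIs, 315 with 5 to 19 and 185 with 20 or more. Plac8 went from 3040 CPM at 0 to 1792 at 20 or more. Ccl7 ran the other way, from 95 to 447 CPM, and Arg1 from 205 to 726. These courses were not steady, since Ccl7 was at 7.77 CPM in the 27 cells with 2 UMIs. In combination Chil3 had no steady course either, at 38.0 CPM with 0 C1q UMIs (46 cells), 147 with 5 to 19 (31 cells) and 36.2 with 20 or more (70 cells). Since the bins were chosen by monocyte genes, they do not show how common such genes are among all C1q-rich cells.

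**Figure D5:**
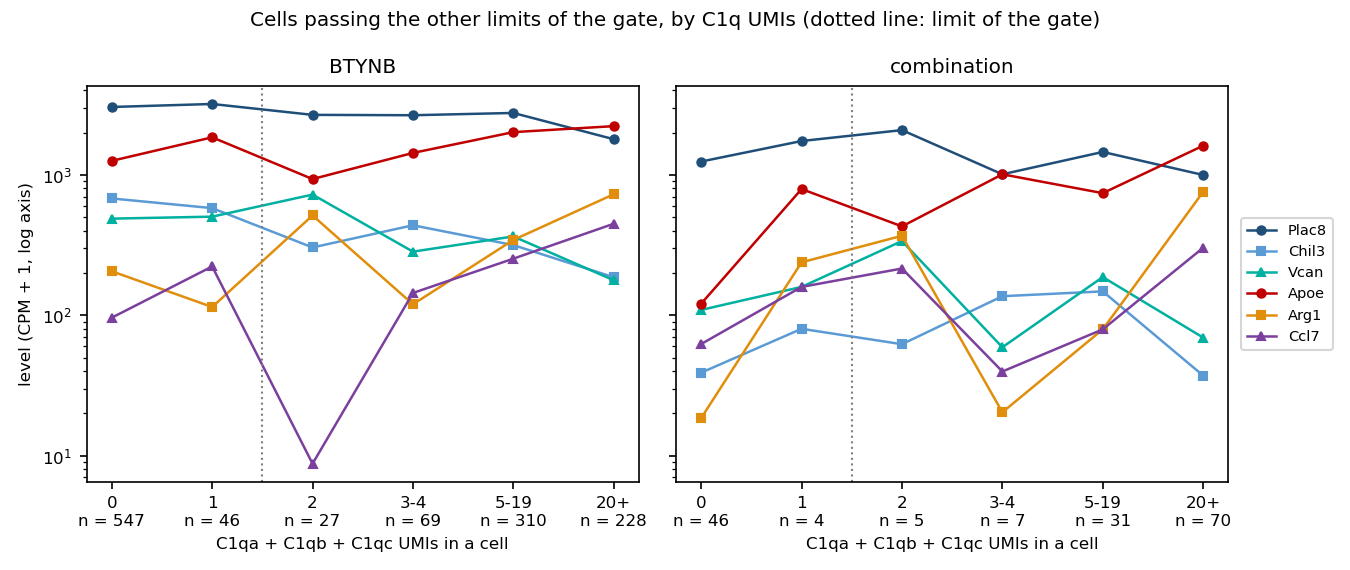
Levels (CPM + 1, log axis) of 6 genes in cells that passed the other limits of the gate, by the number of C1q UMIs in the cell, in BTYNB (left) and combination (right), with the number of cells under each bin and a dotted line at the limit of the gate. In BTYNB, Chil3 goes from 678 to 185 CPM and Ccl7 from 95 to 447 CPM between 0 and 20 or more C1q UMIs, while the combination bins hold as few as 4 cells.

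Xcr1 was carried on both sides of the Ly6c2 threshold and was lower only from 2 UMIs on. Among BTYNB cells that passed the other limits, Xcr1 was at 564 CPM with 0 Ly6c2 UMIs (444 cells, outside), 478 with 1 (147 cells, inside), 78.1 with 2 to 4 and 0 with 5 or more (231 cells). Chil3 ran from 141 CPM to 425, 616 and 853 over the same bins, and H2-Ab1 from 10741 to 4843. In combination, 28 of the 50 members had exactly 1 Ly6c2 UMI, with Xcr1 at 1180 CPM and Chil3 at 0 UMIs, while the 16 with 5 or more had Xcr1 at 171 and Chil3 at 143 CPM. A stricter gate with at least 2 UMIs of Ly6c2 and of Ccr2 kept 421 members in BTYNB (2.30%), 20 in combination (0.284%), 5 in control (0.0638%) and 0 in anti-PD-1, which allows up to 0.0250%.

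Gated cells were then compared between treatments as values without a test, since there was 1 library of each. A gene counted as past the fold at a ratio of at least 2 among genes with 50 UMIs or more in either library. The contrasts share libraries, BTYNB and anti-PD-1 both being set against the same control and combination against both of them. Combination against BTYNB rests on the most cells, 50 and 593. Of 6018 genes, 239 were at least 2-fold higher in combination (3.97%) and 636 lower (10.6%). The 5 genes furthest up were the mitosis genes Nusap1 (2.94 on the log2 scale, 147 against 18.2 CPM), Ube2c (2.90) and Cenpe (2.80), followed by Qpct (2.57) and Hepacam2 (2.57). Those furthest down had 0 UMIs in combination, with S100a8 at least 82.8-fold lower, S100a9 68.1-fold, Ccl12 14.6-fold, Hbb-bs 11.6-fold and Hba-a2 10.3-fold. A single BTYNB cell held 83.3% of the Hbb-bs UMIs, and S100a8 was confined to 34 cells.

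By list, 16 of 23 measured classical monocyte genes were at least 2-fold lower in combination than in BTYNB and 0 higher (median -1.27, all genes -0.08). Over all 6018 genes, 10.6% were lower and 3.97% higher. Without other markers, which left 17 and 523 cells, 3 were lower and 1 higher (median -0.37). Over all 5228 genes measured in that setting, 678 were lower and 228 higher (median -0.06), shares close to those of the list. Chil3 stayed low, at 88.9 against 720 CPM, whereas Ly6c2 was then at 1333 against 1537 CPM and Lyz2 at 7792 against 8322. Fc receptor genes showed the same, with 5 of 5 lower before the removal and 1 of 5 after it. In contrast, Il1b was at 68.0 against 541 CPM with all members and at 17.8 against 597 without other markers, and Thbs1, thrombospondin-1, at 136 against 1813 and 329 against 2199. Of 10 measured inflammatory mediators 5 were lower in either setting (medians -1.29 and -1.06), as were 5 of 11 and 5 of 10 chemokine ligands (-0.94 and -1.0). MHC class II genes had 2 of 9 higher (median 0.63) and, without other markers, 1 of 9 (-0.06). Of the genes inducible by type I interferon, 2 of 16 were higher and 3 lower (median -0.45), and of those inducible by interferon-gamma 1 and 3 of 16 (-0.23). Without other markers both medians changed sign, to 0.24 with 1 higher and 1 lower, and to 0.14 with 1 and 3.

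Cell cycle genes were higher in combination in both settings, in 9 of 12 measured genes with all members (median 1.64) and in 5 of 6 without other markers (1.92). Over all genes, 239 of 6018 were at least 2-fold higher with all members and 228 of 5228 without other markers. Top2a, the topoisomerase of dividing cells, was at 542 against 107 CPM, and at 409 against 78.4 without other markers. Its UMIs were concentrated, since 28 of the 50 combination cells had any and 10 cells held 71.9% of them. In BTYNB 63 of 593 cells had any, and 10 cells held 66.7%. After thinning to 2000 UMIs, 48.0% of the combination cells and 6.93% of the BTYNB cells had a Top2a UMI. The shares were 18.9% and 9.31% in the macrophages, and 23.1% and 18.6% in the tumour cells, which divide themselves and so give no level of free RNA. Only the share in combination lay above the other cells of its library. The cells compared differed in depth before thinning, with 139 of 593 BTYNB members and all 50 of combination at or above 5115 UMIs. A Top2a share among members of that depth was not computed.

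Control and anti-PD-1 held too few members for more than an outline. BTYNB against control had 1644 of 6018 genes at least 2-fold higher (27.3%) and 712 lower (11.8%). The genes furthest up had 0 UMIs in the 8 control cells, namely Il6ra (at least 3.21-fold), C3ar1 (3.07), Pik3ap1 (2.59), Xcr1 (2.42) and Akt1 (2.29). Those furthest down were Col1a1 (-8.98 on the log2 scale), Col1a2 (-8.92), Sparc (-5.85), Slpi (-5.11) and Saa3 (-4.98), and 1 control cell held all UMIs of Col1a1 and Saa3 and 82 of 83 of Slpi. Anti-PD-1 against control, 2 cells against 8, had 8 of 131 genes higher (6.11%) and 18 lower (13.7%). Ccl6 (1.95), H2-Aa (1.91), H2-Eb1 (1.84), H2-K1 (1.51) and Jund (1.36) stood highest, and Slpi (at least 4.97-fold lower), Col1a2, Saa3, Col1a1 and Gm20186 lowest, the same control cell being involved. Combination against anti-PD-1, 50 cells against 2, had 421 of 1258 genes higher (33.5%) and 132 lower (10.5%). Lsp1 (at least 4.12-fold), Xcr1 (2.45), Septin3 (2.12), Fnbp1 (1.89) and Wdfy4 (1.85) had 0 UMIs in anti-PD-1, and Cyb5a (-2.98 on the log2 scale), Vapa (-2.90), Cstb (-2.89), Selenop (-2.55) and Kmt5a (-2.49) stood lowest. The balance of higher and lower genes in these 3 contrasts moved with the scaling, without a change of the larger side. With the median of ratios as scale, BTYNB against control had 2369 genes higher and 279 lower, anti-PD-1 against control 3 and 74, and combination against anti-PD-1 843 and 12. The median gene then stood at 0.71, -1.12 and 1.62 on the log2 scale, where it had stood at 0.21, -0.23 and 0.47.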

How the data were processed

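Single cells of ascites were captured on the BD Rhapsody system, with 1 library for each of 4 treatments and the animals of a treatment pooled. The authors counted reads with BD's own sequence analysis pipeline and deposited, for each library, a matrix of raw UMI counts whose rows are gene symbols. The submitters' processing notes name the build GRCm39, and the annotation is not given in the sources used here. All 4 matrices together list 29835 symbols. Cells under 200 genes or over 33% mt- UMIs were left out. The study used these limits too, but took its mitochondrial genes from a catalogue.

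Levels are UMIs summed per library and gate, in CPM, with exact Poisson intervals. Shares carry exact (Clopper-Pearson) binomial intervals, and 3 counts stand for a count of 0. All intervals are at the 95% level and cover counting error only. Between treatments, log2 ratios of CPM (pseudocount 1 CPM) were taken over genes with at least 50 UMIs in either library, without a test. Monocyte and macrophage gates were compared with edgeR's quasi-likelihood test (edgeR 4.0.16, R 4.3.3, TMM) over genes with at least 50 UMIs, the genes of the gates being left out, with Benjamini-Hochberg adjustment. The approximate SE is the absolute log2 difference divided by the square root of the F statistic of that test. The library was the block, since both gates come from the same pooled cells. The replicates were the 2 libraries with at least 20 cells in both gates, which differ in treatment. On counts simulated for this comparison, 44.2% of 199 genes changed 2-fold (10770 genes tested) and 84.6% of 195 changed 4-fold (10767 genes tested) were called. Every simulated gene had the same dispersion of 0.02, whereas the reported fit let the spread differ between genes. These shares hold for the simulated setting only and may overstate what the reported fit could call.

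Tumour cells had at least 5 UMIs of the keratins, 0 of Ptprc and at most 2 of Lyz2, and 1500 per library were drawn for shares. The methods name a doublet caller but not whether its calls were removed before deposit. Doublets were not removed in the values reported. As an alternative, the 5% of cells with the highest scrublet score in each library were left out. Members were clustered in scanpy 1.11.5 (1500 variable genes, 20 components, 15 neighbours, Leiden resolution 0.8), and leading genes had UMIs in at least 20% of a cluster's cells, a limit added after the clusters had been seen.

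The members and the 23 gene lists and 12 marker lists were chosen with earlier results of these data known. Named genes were the 10 largest called differences in each direction at 50 CPM or more, up to 4 called genes of a list, the 5 highest and 5 lowest of each contrast, and members of lists given with their values. The set of markers used to remove other cells was revised more than once after numbers of called genes had been seen, first to widen it and then to drop Prtn3, which many macrophages carried. Genes named outside these rules, such as those leading clusters and those beside a gate's limit, were chosen after their values were seen. The list of trafficking receptors is not reported here.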

Additional observations from a re-analysis of the deposited data

How the results depend on the processing

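The number of genes called between gated cells and C1q-positive macrophages moved with nearly every choice, from 15 to 25 with RLE size factors, 123 with DESeq2, 557 without the filter on low counts, 250 with the C1q limit as the only exclusion, 31 with the Retnla limit on the macrophages, 53 without the highest doublet scores, 437 at or above 5115 UMIs, 329 with the stricter gate, 74 with cells thinned to 2000 UMIs, 268 without other markers and 470 with all 4 libraries. The fits without the low-count filter, with the stricter gate, without other markers and with all 4 libraries gave no gene a spread of its own. Without the replicate block 0 genes were called, with 810 at an unadjusted p under 0.05. The pairing of the gates comes from their shared library. Leaving out either fitted library left no residual degrees of freedom, so no call could be made. Without other markers Xcr1 (-3.75), Septin3 (-1.82), Itgae (-2.58), Gpr141b (-1.27) and Clec9a (-3.04) reversed, after a removal made in the gated cells but not in the macrophages.

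Genes past the fold numbered 4198 from 20 UMIs and 1226 at or above 5115 UMIs for BTYNB against control (2356 reported), 91 from 20 UMIs and 77 with the median of ratios for anti-PD-1 against control (26), and 1874 from 20 UMIs, 855 with the median of ratios and 104 without other markers for combination against anti-PD-1 (553). Combination against BTYNB gave 576 with a pseudocount of 10 CPM, 1585 from 20 UMIs and 266 at or above 5115 UMIs (875). With no cell left in anti-PD-1, its contrasts at that depth and with the stricter gate were not run.

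The share of members moved by more than its counting interval or spread in the following settings. Among cells with a Ptprc UMI it was 4.42% in BTYNB, 1.92% in combination, 0.679% in control and 0.13% in anti-PD-1. At or above 5115 UMIs it was 2.52% in BTYNB and 0% in anti-PD-1, and with the stricter gate 2.30%, 0.284% in combination and 0% in anti-PD-1. Without other markers it was 2.86% in BTYNB and 0.241% in combination, with the gate applied to cells thinned to 3000 UMIs 4.65% and 0.497%, and without the keratin limit 1.02% in combination, 0.268% in control and 0.141% in anti-PD-1. Chil3 was found in 38.8% of BTYNB members thinned to 1000 UMIs and 56.0% unthinned. BTYNB held the highest share in every setting.
The cause of these moves was not tested, except where fewer cells or genes entered. Depth limits control and anti-PD-1 most, where 8 and 2 members hold few UMIs.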
